A study of Saccharomyces cerevisiae with 8 samples.

Results

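Glycerol metabolism in budding yeast was followed through 10 genes: the transport genes STL1 (YDR536W) and FPS1 (YLL043W), the use genes GUT1 (YHL032C) and GUT2 (YIL155C), the synthesis genes GPD1 (YDL022W), GPD2 (YOL059W), GPP1 (YIL053W, also called RHR2) and GPP2 (YER062C, also called HOR2), and the dihydroxyacetone route genes GCY1 (YOR120W) and DAK1 (YML070W). They were chosen by their systematic names, for their known roles, among 6225 names on the array. No measured value entered the rule, but earlier results of these data were known when it was set. All 10 were among the 5650 genes bright enough to test.

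The study hybridised 8 Agilent 2-colour oligonucleotide arrays. On each array, Cy5 (red) carried total RNA of S288C, the laboratory strain behind the yeast reference genome, in exponential growth in minimal medium in batch culture, with 1 array at each of 16, 17, 19, 20, 21, 22, 23 and 24 h. Cy3 (green) carried RNA of S288C cells aged 64 h, which served as the common reference on all 8 arrays, and the dyes were never swapped. The labels do not say from what event the hours were counted, what carbon source the medium held, or whether each array had a culture of its own. The p-values therefore reflect array-to-array scatter only, and part or all of it may be technical. A positive log2 ratio means a higher level in growing cells, relative to the other genes on the array. In RNA from whole cultures, fewer cells that express a gene and less of its RNA per cell cannot be told apart.

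Yeast makes glycerol from the glycolytic intermediate dihydroxyacetone phosphate in a pair of steps. Glycerol 3-phosphate dehydrogenase, encoded by GPD1 and GPD2, consumes NADH, and glycerol 3-phosphatase, encoded by GPP1 and GPP2, then removes the phosphate. Glycerol serves as the compatible solute of osmotic stress and as a sink for surplus NADH, and in the absence of glucose it is also a carbon source, taken up by Stl1, phosphorylated by Gut1 and oxidised at the mitochondrion by Gut2.

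The median signal of an array was 992.5 to 1674 in Cy5 and 1385.5 to 2031.5 in Cy3, and 84.1% to 91.6% of 12512 gene spots were well above background in Cy5, against 89.5% to 91.1% in Cy3. The labelled states were set beside genes typical of each. These were chosen with earlier results of these data known, so they are no independent check. Of all genes tested, 40.3% were higher in growing cells and 42.6% lower. Of 9 growth genes 7 were higher in growing cells, 1 was lower (RPS3, a ribosomal protein gene with Cy5 saturated on all 8 arrays) and 1 did not pass, with HXT2, a glucose transporter, at a log2 ratio of 5.90 and HXT3, another, at 3.93 with Cy5 saturated on 3 arrays. All 10 genes typical of aged or starved cells were lower in growing cells, YGP1, which codes for a secreted starvation glycoprotein, standing at -6.51; PCK1, of gluconeogenesis, had saturated Cy3 spots on each of the 8 arrays and is given no level. A pair of scanner files, those recorded at 20 h and at 24 h, went against the authors' deposited table. After removal of slide means, the correlation of the 20 h file across 5582 genes was -0.49 to the 20 h column but 0.97 to the 24 h column. That of the 24 h file was -0.39 to the 24 h column but 0.93 to the 20 h column. The remaining 6 files were closest to their own sample, at 0.63 to 0.98. Each result on time is therefore given for the arrays as recorded, for the 6 others alone, and after an exchange of these 2 files. The size of the mean ratio and the difference between a pair of genes on an array do not depend on the recorded time; the standard error of the mean ratio does, through the fitted line.

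The first comparison asked how growing cells differed from cells aged 64 h. Most of the synthesis genes stood on the opposite side from the genes of use and uptake. In growing cells GPD2, GPP1 and GPP2, which make glycerol, were higher, while GUT1 and GUT2, which consume it, and above all STL1, which imports it, were lower. GPD1 was lower as well, as were both genes of the dihydroxyacetone route, and the export channel gene FPS1 stayed between 0.04 and 0.20 on every array. In limma's test 4 of the 10 were higher and 6 lower, where 40.3% of all genes tested were higher and 42.6% lower. The median log2 ratio was -0.58 over the 10 genes and -0.02 over all 5650. A call alone is thus no distinction here, and the sizes follow gene by gene.

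**Figure D1:**
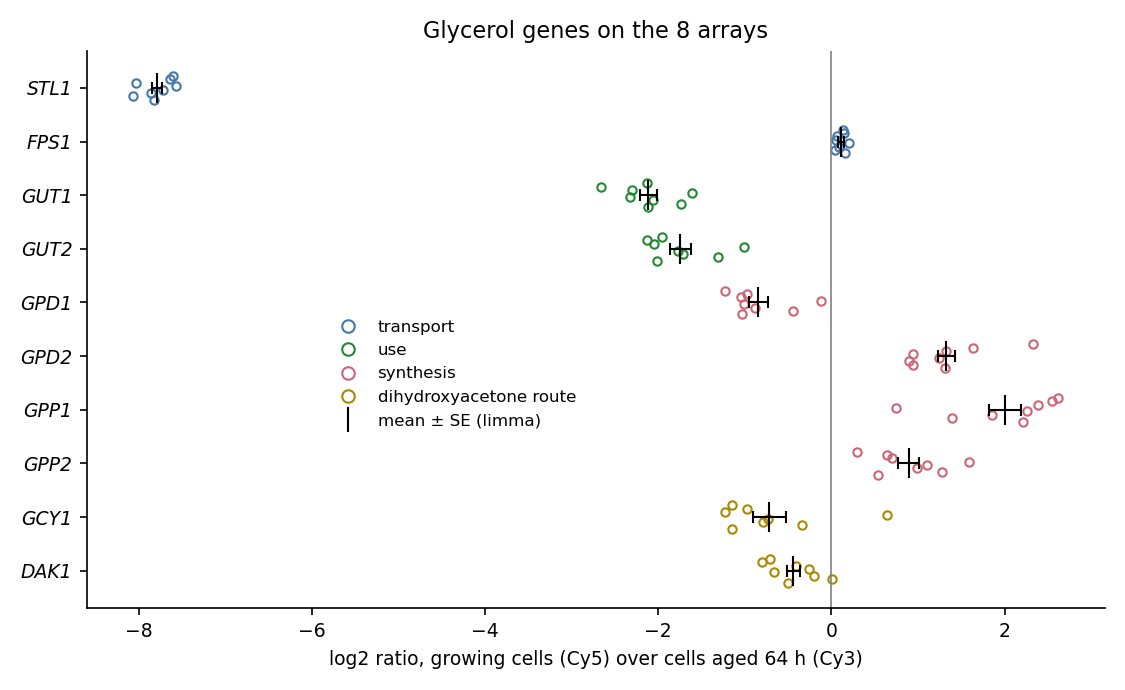
Log2 ratio of growing cells (Cy5) over cells aged 64 h (Cy3) for the 10 glycerol genes, with genes down the page by role. Each open circle is 1 array, in recorded time order from top to bottom within a gene, and the black mark is the mean with limma's standard error over 8 arrays. STL1 lies near -7.79, FPS1 near 0, and GPD2, GPP1 and GPP2 lie to the right of 0 on every array.

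STL1 encodes a proton symporter that imports glycerol. Its log2 ratio was -7.60 on the array of 16 h, -7.63 at 17 h, -8.03 at 19 h, -7.57 at 20 h, -7.72 at 21 h, -7.86 at 22 h, -8.06 at 23 h and -7.82 at 24 h, so all arrays lay within 0.50 of each other. The median spot signal was 123 to 174 in growing cells (Cy5) and 28497 to 43246 in 64 h cells (Cy3). The mean of -7.79 ± 0.06 (SE, n = 8 arrays; limma adjusted p = 7.3e-13) is a 221-fold lower level in growing cells. On 7 of the 8 arrays Cy5 was well above background, the exception being that of 16 h. That channel was near its background, and the mean was -8.46 with plain background subtraction and -8.80 with the scanner software's own ratios.

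FPS1 encodes the aquaglyceroporin through which glycerol leaves the cell. Its log2 ratio ran from 0.04 to 0.20 with a median of 0.12, above 0 on all 8 arrays. The mean was 0.11 ± 0.04 (adjusted p = 0.015), a 1.08-fold higher level in growing cells. The spread over arrays was an SD of 0.06, at percentile 1.3 of the SDs of all genes tested, so FPS1 was among the steadiest genes on these arrays. The call was lost within slide 1 (0.10, adjusted p = 0.070) and within slide 2 (0.13, adjusted p = 0.29). Median centring in place of loess put the mean at 0.46, a shift larger than the range over the arrays.

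Both genes of glycerol use were lower in growing cells. GUT1 encodes glycerol kinase, and its log2 ratio was -2.13, -2.66, -2.30, -1.61, -2.32, -2.05, -1.74 and -2.11 at 16, 17, 19, 20, 21, 22, 23 and 24 h as recorded. GUT2 encodes the mitochondrial FAD-dependent glycerol 3-phosphate dehydrogenase, and its log2 ratio was -1.96, -2.13, -2.04, -1.01, -1.78, -1.72, -1.31 and -2.01 on the same arrays. Neither gene came near 0 on any array, and for both the values nearest 0 were those of the arrays recorded at 20 h and 23 h. The means were -2.12 ± 0.10 for GUT1 (adjusted p = 5.0e-08), 4.33-fold lower in growing cells, and -1.75 ± 0.12 for GUT2 (adjusted p = 6.5e-07), 3.35-fold lower. Within slide 1 and slide 2 GUT1 stood at -2.07 and -2.20 and GUT2 at -1.81 and -1.64, all past the threshold.

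The synthesis genes were split at the first step. GPD1, the isoform known for its induction by osmotic stress, had log2 ratios of -1.23, -0.97, -1.05, -0.12, -1.01, -0.89, -0.44 and -1.03 in the same order of arrays. GPD2, the isoform known for its induction without oxygen, had 2.33, 1.64, 1.32, 0.94, 1.25, 0.89, 0.95 and 1.31. Every array thus had GPD1 below 0 and GPD2 above it. The mean was -0.84 ± 0.11 for GPD1 (adjusted p = 7.3e-05), 1.79-fold lower in growing cells, and 1.33 ± 0.10 for GPD2 (adjusted p = 1.4e-06), 2.51-fold higher. The size for GPD1 depended on the scaling: with median centring the mean was -0.17 and the call was lost (adjusted p = 0.16), and on the 3 arrays of slide 2 it was -0.70 (adjusted p = 0.081), against -0.93 and called on slide 1. GPD2 stood at 1.36 on slide 1 and 1.27 on slide 2, and at 1.63 with the scanner's ratios. Its Cy3 signal was low, at 440 to 729.

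Both phosphatase genes of the second step were higher in growing cells. GPP1 had log2 ratios of 2.62, 2.55, 2.38, 0.75, 2.26, 1.85, 1.40 and 2.22 in the order of recorded times, with 1 spot saturated in Cy5 on the 17 h array. That spot had a Cy5 signal of 65515, and unflagged spots came near it, at up to 64181 at 16 h, 62086 at 19 h and 61233 at 24 h. Whether these high signals were compressed was not tested. GPP2, the isoform known to respond to osmotic stress, had 0.30, 0.64, 0.70, 1.59, 1.10, 0.99, 1.28 and 0.54. The arrays ranked the genes in opposite ways: the array recorded at 20 h was the lowest for GPP1 and the highest for GPP2, and the array of 16 h was the highest for GPP1 and the lowest for GPP2. The mean was 2.00 ± 0.18 for GPP1 (adjusted p = 4.8e-06), 4.01-fold higher in growing cells, and 0.89 ± 0.12 for GPP2 (adjusted p = 9.4e-05), 1.86-fold higher. Slides 1 and 2 gave 2.09 and 1.85 for GPP1 and 0.76 and 1.11 for GPP2, all called. With median centring the mean of GPP1 was 2.63. GPP1 and GPP2 are close relatives in sequence, and whether their probes bind each other's transcripts was not tested.

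In the dihydroxyacetone route glycerol is first oxidised and then phosphorylated. GCY1, an aldo-keto reductase with glycerol dehydrogenase activity, had log2 ratios of -1.15, -0.98, -1.23, 0.64, -0.73, -0.79, -0.34 and -1.15 in the order of recorded times. It was below 0 on 7 of the 8 arrays, and the array recorded at 20 h lay 0.98 above the next highest. DAK1, dihydroxyacetone kinase, had -0.71, -0.79, -0.40, -0.26, -0.66, -0.20, 0.01 and -0.50, also below 0 on 7 arrays. The means were -0.71 ± 0.19 for GCY1 (adjusted p = 0.0063), 1.64-fold lower in growing cells, and -0.44 ± 0.07 for DAK1 (adjusted p = 0.00035), 1.36-fold lower. GCY1 was at -0.93 on slide 1 and at -0.35, not past the threshold (adjusted p = 0.45), on slide 2, which holds the array recorded at 20 h. DAK1 was called on both slides, at -0.36 and -0.57, but not with median centring, which put it at -0.09 (adjusted p = 0.39).

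Isoform pairs were then compared within each array, with an exact paired sign-flip permutation test, two-sided and adjusted over 4 pairs. The log2 ratio of GPD1 minus that of GPD2 was -3.56, -2.61, -2.37, -1.06, -2.25, -1.78, -1.39 and -2.34 in the order of recorded times. It was negative on 8 of 8 arrays, with a mean of -2.17 ± 0.27 (SE, n = 8; exact p = 0.0078, the smallest that 8 arrays allow; adjusted p = 0.016). GPP1 minus GPP2 was 2.32, 1.91, 1.68, -0.85, 1.15, 0.86, 0.12 and 1.67, positive on 7 of 8 arrays, with a mean of 1.11 ± 0.37 (exact p = 0.023; adjusted p = 0.031). The isoforms thus differed in their ratio at both steps. With median centring GPD1 minus GPD2 was -1.37, negative on all 8 arrays with the array recorded at 20 h at -0.26, and GPP1 minus GPP2 was 1.65 (exact permutation adjusted p = 0.031). The second of these calls was not held when any of 6 of the 8 arrays was left out (adjusted p = 0.063 in the exact test), nor with the scanner's ratios (0.86, adjusted p = 0.083 in the exact test). Both kept their direction within each slide, where 5 and 3 arrays cannot reach the threshold.

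YPR1 encodes the paralogue of GCY1, another aldo-keto reductase. It had log2 ratios of -0.66, -0.66, -0.79, -0.02, -0.45, -0.42, -0.28 and -0.56, and a mean of -0.48 (-0.10 with median centring). GCY1 lay below it on 7 of 8 arrays, by a mean of 0.24 (difference -0.24 ± 0.14; exact permutation p = 0.13), and above it by 0.66 on the array recorded at 20 h. With median centring the difference was -0.45 and passed the threshold (exact permutation adjusted p = 0.031). On the 6 arrays without a mismatch the difference was -0.33, negative on all 6 arrays, and passed the threshold (exact permutation adjusted p = 0.031, the smallest that 6 arrays allow). That choice of arrays leaves out the only array of the opposite sign, though the difference does not depend on recorded time. The pass is therefore no support for a difference. DAK2, the isoform of DAK1, was not well above background in Cy3 on any array and was so in Cy5 on 3, so the value of DAK1 minus DAK2, which is the remaining pair in the adjustment, is not given.

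**Figure D2:**
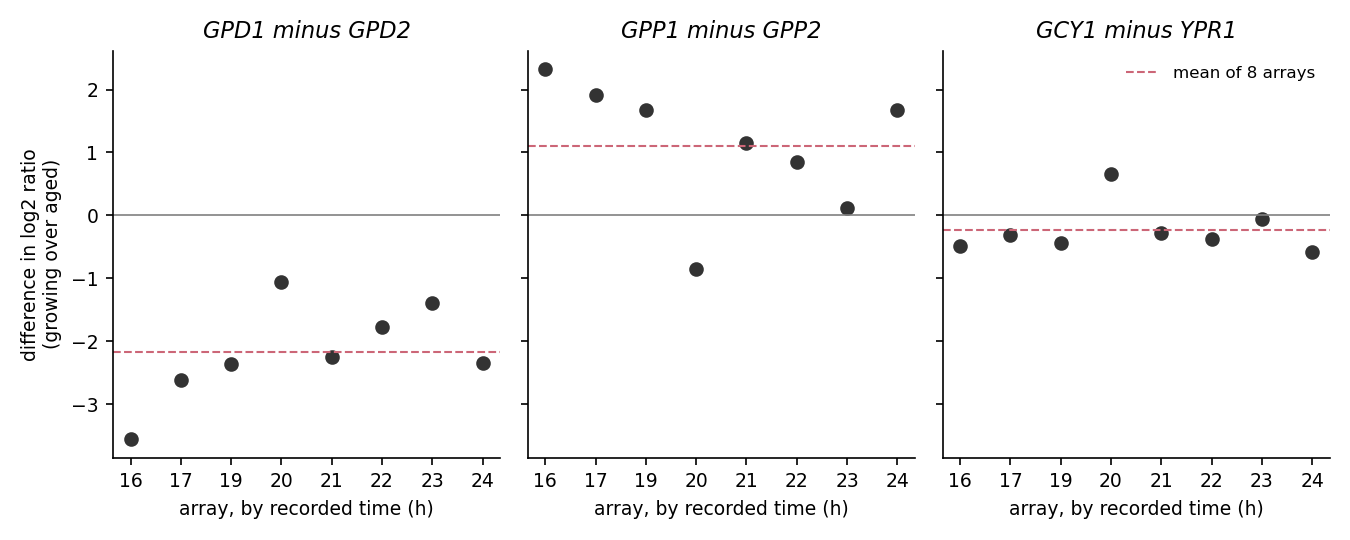
Difference in log2 ratio (growing cells over cells aged 64 h) between members of an isoform pair on each of the 8 arrays, ordered by recorded time. Points are arrays and the dashed line is their mean, which lies at -2.17 for GPD1 minus GPD2, 1.11 for GPP1 minus GPP2 and -0.24 for GCY1 minus YPR1; in each panel the array recorded at 20 h stands to the side of the mean that is nearest to or past 0.

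The scatter between arrays lay mostly in the channel of the growing cells. For these signals, after the loess step, the average intensity of both channels was brought to the same distribution on all arrays, with the ratios unchanged. For the 10 genes the normalized log2 signal ranged over 0.51 to 2.12 between arrays in Cy5, and over 0.20 to 0.50 in Cy3, where every array carried the same 64 h RNA. The ranges in Cy5 and Cy3 were 2.12 and 0.29 for GPP1, 1.74 and 0.23 for GCY1, 1.64 and 0.23 for GPD2, and 1.24 and 0.21 for GUT2. FPS1 had 0.51 and 0.41, DAK1 0.72 and 0.50, and STL1 0.66 and 0.39, so for these 3 genes the channels were closer in range. The SD of the log2 ratio over arrays was at percentile 98.3 of all genes tested for GPP1, 98.1 for GCY1, 95.6 for GPD2, 94.3 for GPP2, 92.9 for GUT2, 91.4 for GPD1, 88.2 for GUT1, 82.4 for DAK1 and 61.8 for STL1.

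**Figure D3:**
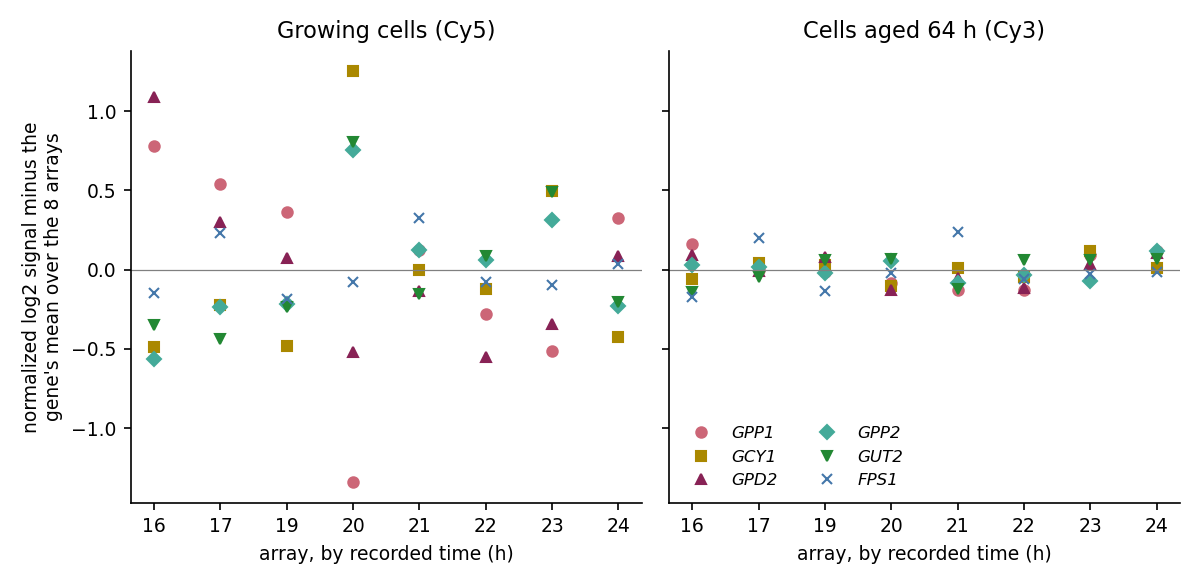
Normalized log2 signal of 6 glycerol genes on each array, minus the gene's own mean over the 8 arrays, in growing cells (Cy5, left) and cells aged 64 h (Cy3, right), with arrays ordered by recorded time. The points spread over up to 2.12 in Cy5 (GPP1) and within 0.41 in Cy3 (FPS1).

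Several of the glycerol genes varied together or in opposition over the arrays, and the pairs named next are among the strongest. Other pairs were weaker over the 8 arrays, such as DAK1 with GCY1 (r = 0.50) and GPD1 with STL1 (r = 0.006). How strongly pairs drawn from all genes tested correlate was not tested, so nothing is claimed as particular to these genes. Over the 8 arrays GPP1 ran against GPD1 (Pearson r = -0.97), GUT2 (r = -0.96), GCY1 (r = -0.94) and GPP2 (r = -0.90). GUT2 ran with GCY1 (r = 0.95) and GPD1 (r = 0.93). On the 6 arrays without the mismatch the same correlations of GPP1 were -0.92, -0.94, -0.87 and -0.86. STL1 correlated with none of the other 9 beyond 0.62 in size over 8 arrays, but on the 6 arrays its correlation was -0.865 with DAK1, 0.838 with FPS1, 0.725 with GPD2 and 0.720 with GPP1. These values describe arrays that share 1 reference RNA and, within a slide, 1 scan session.

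The genes outside the 10 whose course over the 8 arrays was most like each were found by Pearson correlation of the log2 ratio, 2 for each. They were YGL193C and YNL285W for STL1 (r = 0.96 and 0.95), and RPS27A and PAC10 for FPS1 (0.91 and 0.90). For GUT1 they were YNK1 and YPL247C (both 0.99), for GUT2 KGD1 and LDB17 (both 0.99), for GPD1 MBR1 and ATH1 (both 0.99), and for GPD2 SCM4 and MRH4 (0.98 and 0.97). For GPP1 they were RPC10 (0.998) and the glucose transporter gene HXT3 (0.994), for GPP2 GTT1 and PST1 (both 0.99), for GCY1 NDI1 and TPH3 (both 0.99), and for DAK1 RIM15 and RCI37 (both 0.98). Without the 2 arrays farthest from the median of the gene, the 20 correlations lay at 0.83 to 0.99. Each gene was picked as among the most alike of all tested genes outside the 10, so high values follow in part from the picking. The trimmed values reuse arrays that did the picking and are no independent support. For STL1 the Cy5 signal was near its background, and what its likeness to these genes reflects was not tested.

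The next comparison asked whether the genes changed over the sampled hours. As the files are recorded, 0 of the 10 had a slope past the threshold, and neither had any of the 5650 genes (0% called by limma). Before adjustment, 385 genes lay under 0.05, and no adjusted value was below 0.71. The steepest was GPD2, at -0.127 ± 0.039 log2 per h (SE; limma adjusted p = 0.71). The slopes of the others lay at -0.099 (GPP1) to 0.063 (DAK1).

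On the 6 arrays without a mismatch, GPD2 and GPP1 fell and GPP2 rose relative to 64 h cells, while 5.2% of all genes tested rose and 3.17% fell. GPD2 had log2 ratios of 2.33 at 16 h, 1.64 at 17 h, 1.32 at 19 h, 1.25 at 21 h, 0.89 at 22 h and 0.95 at 23 h, a slope of -0.175 ± 0.028 log2 per h (adjusted p = 0.0072). GPP1 had 2.62, 2.55, 2.38, 2.26, 1.85 and 1.40 at these times, each value below the one before it, and a slope of -0.153 ± 0.027 (adjusted p = 0.011). GPP2 had 0.30, 0.64, 0.70, 1.10, 0.99 and 1.28, and a slope of 0.121 ± 0.019 (adjusted p = 0.0071). The isoforms of the phosphatase thus ran in opposite directions over these hours. The other slopes did not pass: 0.094 for DAK1 (adjusted p = 0.061), 0.093 for GCY1 (0.066), 0.088 for GUT2 (0.058), 0.074 for GPD1 (0.097), 0.070 for GUT1 (0.22), -0.049 for STL1 (0.21) and -0.008 for FPS1 (0.81). The slope of all genes tested had a median of 0.002, and that of the 10 genes one of 0.072. The counts depended on single arrays and on the slide. Without the array of 23 h only GPD2 was called, at -0.196 (adjusted p = 0.042), and without that of 16 h GPP2 was not; with the slide as a block 7 of the 10 were called, GUT2, GPD1, GCY1 and DAK1 being added as rising.

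With the 20 h and 24 h files exchanged, 8 of the 10 genes changed, 6 rising and 2 falling, beside 10.5% of all genes rising and 8.58% falling. The genes of use rose, GUT1 by 0.088 ± 0.027 log2 per h (adjusted p = 0.044) and GUT2 by 0.118 ± 0.026 (adjusted p = 0.012). At the first step of synthesis GPD1 rose by 0.108 ± 0.026 (adjusted p = 0.018) and GPD2 had a slope of -0.154 ± 0.024 (adjusted p = 0.0029). At the second step GPP1 had a slope of -0.205 ± 0.034 (adjusted p = 0.0034) and GPP2 rose by 0.138 ± 0.022 (adjusted p = 0.0030). In the dihydroxyacetone route GCY1 rose by 0.169 ± 0.045 (adjusted p = 0.028) and DAK1 by 0.080 ± 0.022 (adjusted p = 0.029). The transport genes did not pass, STL1 at -0.018 (adjusted p = 0.64) and FPS1 at -0.010 (adjusted p = 0.64). For GUT1, GUT2, GPD1, GPD2, GPP1, GCY1 and DAK1 the sign of the slope was opposite to that of the mean ratio, and for GPP2 it was the same. GPD2, GPP1 and GPP2 were called whichever of the 8 arrays was left out. GUT2 was called in 7 of these 8 fits, GCY1 in 6, GPD1 in 5, DAK1 in 4 and GUT1 in 2. Without the file recorded at 20 h, which stands at 24 h here, or without that of 23 h, 4 of the 10 were called.

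**Figure D4:**
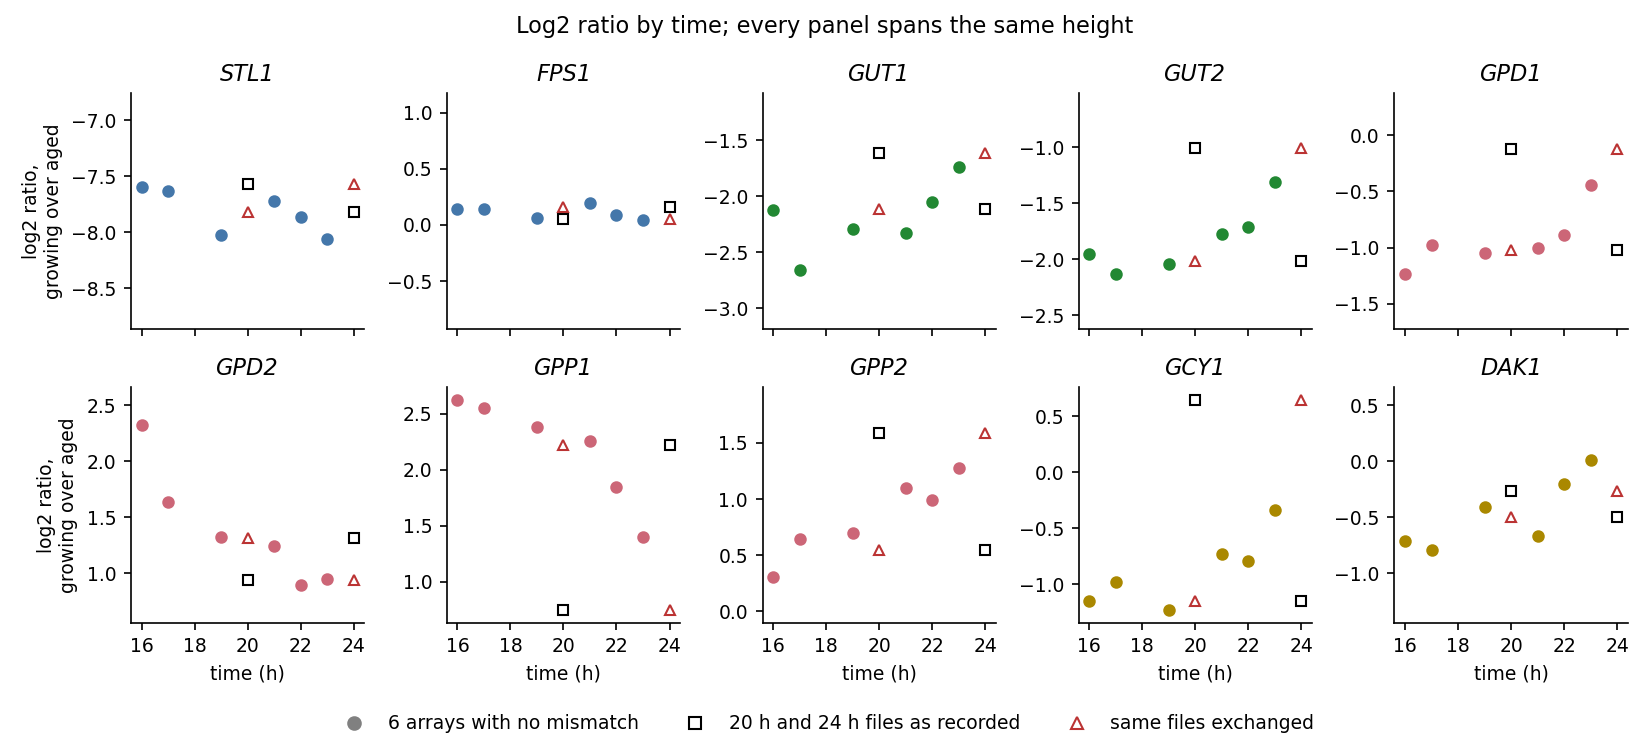
Log2 ratio of growing cells over cells aged 64 h by time in h, 1 panel per gene, each panel spanning the same height. Filled circles are the 6 arrays without a mismatch, open squares the 20 h and 24 h files as recorded and open triangles the same files exchanged; with the exchange, GPP1 ends at 0.75 and GCY1 at 0.64 at 24 h.

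In the authors' deposited table, whose values are log2 and centred per gene, the same 8 genes passed in the same directions when fitted with limma, beside 15.9% of 5609 genes rising and 18.5% falling. In the authors' deposited table GPP1 was at 0.65 at 16 h, 0.25 at 20 h, -0.51 at 23 h and -1.32 at 24 h, a slope of -0.201 log2 per h. In the authors' deposited table GPD2 had 1.25 at 16 h and -0.77 at 24 h (slope -0.189), and GCY1 had -0.39 and 1.22 at those times (slope 0.168). In the authors' deposited table STL1 had a slope of 0.028 (adjusted p = 0.37), opposite in sign to the loess-normalized scanner files, and FPS1 one of -0.021 (adjusted p = 0.12). The table and the exchanged files come from the same hybridisations and are not independent of each other.

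**Figure D5:**
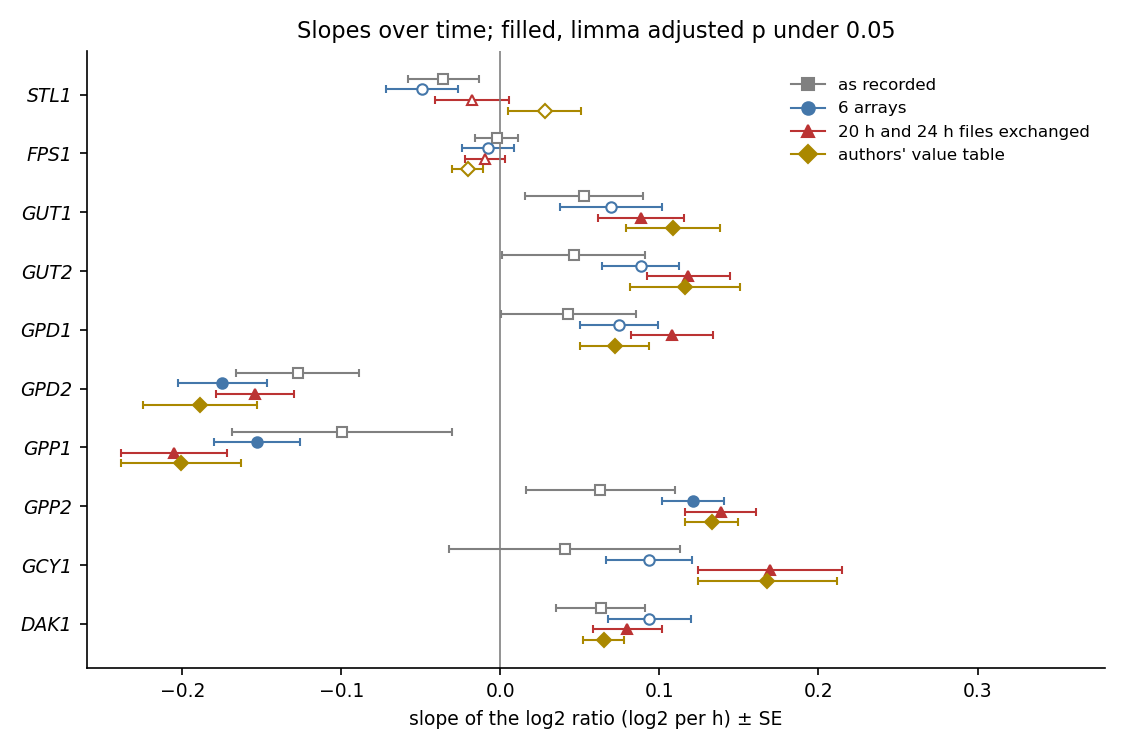
Slope of the log2 ratio over time, in log2 per h with its standard error, for the 10 glycerol genes in 4 fits: 8 arrays as recorded, the 6 arrays without a mismatch, the 20 h and 24 h files exchanged, and the authors' value table. Filled marks have a limma adjusted p under 0.05; GPD2 and GPP1 lie left of 0 and GUT1, GUT2, GPD1, GPP2, GCY1 and DAK1 right of 0 in all 4 fits.

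Curved courses were tested with a squared time term. As recorded, 0 of the 10 and 0% of all genes passed (395 had an unadjusted p under 0.05); GPD2 had 0.042 ± 0.010 log2 per squared h (adjusted p = 0.53). With the files exchanged, GUT2 passed at 0.031 ± 0.006 (adjusted p = 0.049), where 0.496% of all genes curved upward and 0.159% downward. GPP1 at -0.040 (adjusted p = 0.053) and GCY1 at 0.053 (adjusted p = 0.055) did not pass. The call of GUT2 was lost when any array but that of 17 h was left out.

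The surrounding pathway was read from lists of genes of known function. Of 20 genes of osmosensing and the HOG kinase pathway, which controls glycerol synthesis under osmotic stress, 3 were higher in growing cells, 14 lower and 3 did not pass, with a median log2 ratio of -0.33. SMP1, a transcription factor, was at -1.34 and MSB2, a sensor mucin, at -0.84, while the 3 higher genes were YPD1, of the phosphorelay, at 0.70, the sensor gene SHO1 at 0.63 and the kinase gene HOG1 at 0.34. Of 12 genes that the pathway induces outside glycerol metabolism, 1 was higher, 10 lower and 1 did not pass, with a median of -3.71. GRE1, a hydrophilin, was at -5.49, and HSP26, a small heat shock protein gene, was lower with Cy3 saturated on all 8 arrays, so it is given no level. Both GRE1 and HSP26 are also among the genes typical of aged or starved cells, so these lists overlap. CWP1, which codes for a cell wall mannoprotein, was the 1 higher gene, at 0.88.

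The regulators and partners of the 10 genes were lower in growing cells more often than higher. In the list of 12 regulators of glycerol use genes, which also holds YIG1 of the synthesis side, 11 were lower and 1 higher, the glucose repressor MIG1 at 0.91. With median centring 8 of them were called lower and 1 higher, and the scanner's ratios gave the same counts. ADR1 and CAT8, activators of genes for growth without glucose, were at -2.15 and -2.05, YIG1, whose product is known to interact with glycerol 3-phosphatase, at -3.74, and SIP4, an activator of gluconeogenic genes, at -3.84 with Cy5 well above background on only 1 array, where the scanner's ratios gave -5.86. Of 7 tested genes around Fps1 and the aquaporins 5 were lower, 1 higher and 1 did not pass. AQY2, a gene of the aquaporin family, was at -4.46, and ASK10, a positive regulator of Fps1, was the higher gene at 1.05. Its relative RGC1 was at -0.66. All 7 genes of other NADH shuttles and of NADH dehydrogenases (the shuttles list) were lower. With median centring 6 of them were lower and 1 was higher. MDH2, the cytosolic malate dehydrogenase, was at -5.19 with 1 array saturated in Cy3. NDE2, an external NADH dehydrogenase, was at -3.32 with Cy5 well above background on 7 arrays.

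Genes next to the branch points came in the last 3 lists. Of 10 genes that lead from glycerol 3-phosphate to phospholipids and back, 2 were higher, 7 lower and 1 did not pass, with a median of -0.22; GPT2, an acyltransferase, was at -1.002 and PGC1, a phosphatidylglycerol phospholipase, at -0.69, while the higher genes were SLC1, an acyltransferase, at 0.36 and CDS1, which makes CDP-diacylglycerol, at 0.28. All 4 tested relatives of GCY1 and DAK1 were lower, GRE3, an aldose reductase, at -0.93 and YDL124W, an oxidoreductase, at -0.83. With median centring only 2 of the 4 were called lower, and YPR1 was at -0.10 (limma adjusted p = 0.31). Of 6 genes of lower glycolysis at the branch point only TDH2, a glyceraldehyde 3-phosphate dehydrogenase gene, was saturated on no array, and it was higher, at 0.42 and with median centring at 1.10. FBA1, TPI1, TDH3 and PGK1 were saturated in Cy5 and TDH1 in Cy3 on all 8 arrays; limma called these 5 lower, and with median centring 4 of them higher, and they are given no level or direction. In a check of scaling added after seeing the data, and leaving out genes saturated in a channel on all 8 arrays, median centring turned the sign of ADH3 of the shuttles (to 0.65, with Cy5 saturated on 6 arrays), ARA1 (to 0.13) and OPI1 of the regulators (to 0.07), and the scanner's ratios that of SNF1 (to 0.02); no other called gene of the lists changed sign under either scaling. These counts are to be read against the 40.3% and 42.6% of all genes, and nothing is claimed from them as particular to these lists.

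Over time on the 6 arrays, where 5.2% of all genes tested rose and 3.17% fell, differences between the lists were not tested, and several counts are near those shares. The HOG pathway list had 0 of 20 genes past the threshold, while 4 of the 12 genes it induces rose, HSP12, a membrane-protecting heat shock protein gene, by 0.41 log2 per h and DDR2, a stress protein gene, by 0.22, both with Cy3 saturated on 3 arrays. Of the 12 regulators 3 rose, ADR1 by 0.17 and CAT8 by 0.15. AQY2 rose by 0.15 as the 1 of 7 genes of its list, and in the shuttles list MDH2 rose by 0.09, while MDH1 passed as rising with Cy3 saturated on 7 of the 8 arrays and is given no slope. Of the 4 relatives of GCY1 and DAK1, GRE3 and ARA1 both rose by 0.09. In the phospholipid list AYR1, which reduces acyl dihydroxyacetone phosphate, rose by 0.08. TDH1 was the 1 gene of lower glycolysis that passed, with Cy3 saturated on every array. Of the genes typical of growth HXT3 alone passed, at -0.45 log2 per h with Cy5 saturated on 3 arrays, and of those typical of aged cells 0 of 10 did.

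With the files exchanged, where 10.5% of all genes tested rose and 8.58% fell, 9 of the 12 HOG-induced genes rose and 0 fell, and in the HOG pathway list 1 of 20 rose and 1 fell. All 4 tested relatives of GCY1 and DAK1 rose. So did 4 of the 7 genes of the shuttles list, 4 of the 12 regulators and 3 of the 10 phospholipid genes, while 1 other phospholipid gene fell. Around Fps1 2 of the 7 genes rose and 1 fell, in lower glycolysis 1 of 6 rose, 4 of the 9 growth genes fell and 0 rose, and 3 of the 10 genes typical of aged cells rose. As recorded, none of the lists had a gene past the threshold, as none of the 5650 genes had.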

How the data were processed

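Per the file headers, the authors extracted the spot intensity of both channels with Agilent Feature Extraction, version 10.5.1.1, which the submitters' processing notes also name. Their deposited files carry the software's own log10 ratio (red to green) as well. The authors' value table is on a log2 scale, centred per gene from its values; its normalization is not stated in the sources used here. The design annotation in the file headers is of the sacCer2 build, and no coordinates are given.

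Background was corrected with normexp (offset 50) on median signals, since the files hold no mean signals. Ratios were normalized within arrays by loess in limma 3.58.1 (R 4.3.3), with control spots at weight 0. After removal of outlier spots, duplicate spots were averaged. For 29 genes with several probes, none among the 10, the brightest probe was used. Genes entered the test if 4 or more arrays had them well above background in a channel (5650 of 6225; symbols from RefSeq's gene table). With lmFit and eBayes, a line on centred time was fitted; its intercept sets the mean log2 ratio against 0, leaves out the spread of 64 h cells and holds any dye bias. The Benjamini-Hochberg adjustment ran over all genes tested (threshold 0.05). Arrays of 16, 19, 22, 23 and 24 h lay on slide 1 and the others on slide 2, each with its own scan session. The slope fit was run on simulated arrays with known slopes and independent noise. These held no slide effect and no mismatched files, so they check the code and not the fits to these arrays. The members, lists, tests and rule for named genes were chosen with earlier results of these data known; the rule names all 10 members, in each list the 2 largest mean ratios and the 2 largest slopes among those past the threshold, and the 2 most alike genes per member. HOG1, YPD1, SHO1, SLC1, CDS1, CWP1, MIG1, ADR1, CAT8, RGC1, RPS3, the lower glycolysis genes and those whose sign turned with the scaling were named for their mean ratios after their values were seen. Alternatives tried were other background steps, scalings and filters, the slide, each array left out, and the authors' table. Precision is limited by the number of arrays. The planned description of promoter motifs was not run, and promoter sequences are not analysed here.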

Additional observations from a re-analysis of the deposited data

How the results depend on the processing

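The mean log2 ratio of all 10 genes kept its direction in every alternative run, and 10 were called except with median centring (8), within slide 1 (9), within slide 2 (7) and with the filter on all arrays (9, STL1 not being tested). Members with a slope numbered 0 as recorded, 3 without the arrays of 20 h and 24 h, 8 with these files exchanged and 8 in the authors' table. On the 6 arrays the count was 6 with median centring, 7 with the slide as a block, and 1 to 4 with an array left out; both scalings on the 6 arrays and on the exchanged files were chosen after seeing the data. With files exchanged it was 4 to 8 with an array left out. Members with curvature numbered 0 as recorded, 1 with files exchanged and 2 in the authors' table; with files exchanged the count was 4 with the slide as a block, 0 with the scanner's ratios and 0 to 1 with an array left out. Slopes that were not called turned sign for FPS1 (0.0097 with median centring, 0.0036 within slide 2, 0.00016 without the 16 h array, and -0.0083 to 0.0019 with an array left out; on 6 arrays 0.0086 and with files exchanged 5.4e-05 with median centring) and for STL1 (0.028 in the authors' table; with the scanner's ratios 0.0097 as recorded, 0.0021 on 6 arrays and 0.025 with files exchanged). GPD1 minus GPD2 was -2.29 within slide 1 and -1.98 within slide 2 (exact permutation adjusted p = 0.063 and 0.5), -2.48 with the scanner's ratios, -1.37 with median centring, and -2.33 to -1.97 with an array left out. GPP1 minus GPP2 was 1.33 and 0.74 within the slides (adjusted p = 0.063 and 0.67 in the exact test), 0.86 with the scanner's ratios, 1.65 with median centring, and 0.94 to 1.39 with an array left out. GCY1 minus YPR1 was -0.45 with median centring and -0.33 without the arrays of 20 h and 24 h, both past the threshold. It was -0.36 to -0.19 with an array left out, where only the fit without that of 20 h passed. Fits without the array recorded at 20 h leave out the only positive value, so their passing is no support for a difference. Within slide 2 the difference turned to 0.020. The cause of these shifts was not tested. DAK1 minus DAK2 entered the adjustment but is not printed, since DAK2 was too dim. Isoforms were paired within arrays; no pairing by replicate number exists, since the arrays form 1 group with 1 array per time.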
